A study of Arabidopsis thaliana with 6 samples.

Results

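Arabidopsis trehalose-6-phosphate synthase (TPS) genes were followed in seedlings exposed for 1 h to a lipid amide. The genes were taken by their TAIR identifiers: the class I gene TPS1 and the class II genes TPS5 to TPS11, 8 genes in all. Of these, 7 had values among the 32424 loci of the deposited table, and TPS9 (AT1G23870) was not analysed here. Wild-type seedlings of the Col-0 accession, labelled as 4 days old (3 days in the growth text), were moved from plates with 1% sucrose into liquid half-strength MS medium that also held 1% sucrose. The medium contained N-linolenoylethanolamine (NAE 18:3) at 100 µM in 1 group and DMSO at 0.07% in the control group. NAE 18:3 is the ethanolamine amide of linolenic acid, one of the N-acylethanolamines found in plant tissues. How much DMSO came with NAE 18:3 is not recorded, so solvent and compound cannot be told apart. Each group comprised 3 libraries of whole seedlings, called biological replicates in the labels, from RNA with integrity numbers of 9.5 to 10. Levels are FPKM, the fragments assigned to a locus per kilobase of its length, scaled to the mapped fragments of the library, so levels of different genes can be set side by side.

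Trehalose 6-phosphate is made from UDP-glucose and glucose 6-phosphate by TPS enzymes, is dephosphorylated to trehalose by trehalose-6-phosphate phosphatases (TPP), and trehalose is split into glucose by trehalase. In plants trehalose 6-phosphate follows sucrose and acts as a signal of sugar status, in part by inhibiting the SnRK1 protein kinase, which is active under carbon starvation. TPS1 is a catalytically active synthase that embryos need. The class II proteins join a TPS-like and a TPP-like domain, and for most of them no synthase activity has been found. Transcripts of TPS8, TPS10 and TPS11 are known to accumulate in carbon-starved tissue and to decline with sugar supply, whereas those of TPS5 rise with sugar.

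The upstream sequences of 3 members are given because TPS11 and TPS8 had the largest rises and TPS5 the largest fall. Each line is the 300 bases before the annotated transcript start, read 5′ to 3′ on the gene's strand from TAIR10.1: chr2:8108598-8108897 on the plus strand for TPS11, chr1:26474834-26475133 on the minus strand for TPS8 and chr4:9875872-9876171 on the plus strand for TPS5. Capitals mark matches, on either strand, to the motifs CACGTG (the G-box bound by bZIP and bHLH factors), ACTCAT (an element bound by bZIP factors of the S1 group), TATCCA (known from sugar-responsive amylase promoters of rice) and AAATATCT (the evening element of clock-regulated genes).
TPS11: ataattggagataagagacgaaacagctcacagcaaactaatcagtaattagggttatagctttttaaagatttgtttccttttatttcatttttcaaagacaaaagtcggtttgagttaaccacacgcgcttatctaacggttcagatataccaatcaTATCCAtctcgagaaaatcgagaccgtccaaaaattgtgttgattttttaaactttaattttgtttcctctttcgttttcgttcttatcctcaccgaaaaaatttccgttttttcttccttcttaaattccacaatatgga
TPS8: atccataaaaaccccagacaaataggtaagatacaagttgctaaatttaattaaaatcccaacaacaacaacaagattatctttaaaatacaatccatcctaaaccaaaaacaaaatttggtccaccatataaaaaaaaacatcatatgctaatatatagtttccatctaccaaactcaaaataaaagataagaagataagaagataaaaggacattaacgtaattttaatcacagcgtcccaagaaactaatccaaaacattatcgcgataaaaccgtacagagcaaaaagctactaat
TPS5: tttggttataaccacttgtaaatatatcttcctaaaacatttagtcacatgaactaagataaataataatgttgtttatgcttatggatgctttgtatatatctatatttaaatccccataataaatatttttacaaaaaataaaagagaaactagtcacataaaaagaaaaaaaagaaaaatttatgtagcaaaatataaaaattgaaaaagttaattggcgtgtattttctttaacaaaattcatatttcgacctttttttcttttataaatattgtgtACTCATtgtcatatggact

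Of the printed windows, that of TPS11 held TATCCA, 141 to 136 bases before the start, that of TPS5 held ACTCAT, 19 to 14 bases before it, and that of TPS8 held none of the 4 motifs. In windows of the same length of 27400 protein-coding genes, CACGTG was found in 7.23%, ACTCAT in 14.7%, TATCCA in 16% and AAATATCT in 5.73%. The windows of the other members are not described, so motifs are not compared between members that rose and members that fell. These matches are descriptions of 300 bases and say nothing of whether a factor binds.

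After NAE 18:3, 5 class II genes rose (TPS6, TPS7, TPS8, TPS10 and TPS11) and TPS5 and TPS1 fell. All 7 genes passed the test across all loci (limma on log2(FPKM + 1), Benjamini-Hochberg adjusted p under 0.05), which has to be read against 83.2% of all 18194 loci tested being called, 44.1% higher and 39.2% lower. After upper-quartile scaling the split was 5857 higher against 9497 lower, since that scaling took the median change over all loci from 0.06 to -0.25 (log2). The median of the 7 TPS genes was 2.17 as deposited and 1.86 after it. At least 2-fold changes on the log2(FPKM + 1) scale were found in 6 of the 7 genes as deposited. Of all loci tested, 35.6% were called and changed at least 2-fold as deposited. TPS7, at 1.32 (log2) as deposited, went just under 2-fold after upper-quartile scaling (0.98) and after quantile normalization (0.95). The values of the groups did not overlap in 7 of 7 genes, against 84.6% of all loci. In whole seedlings, fewer cells of a type and less RNA per cell cannot be told apart.

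**Figure D1:**
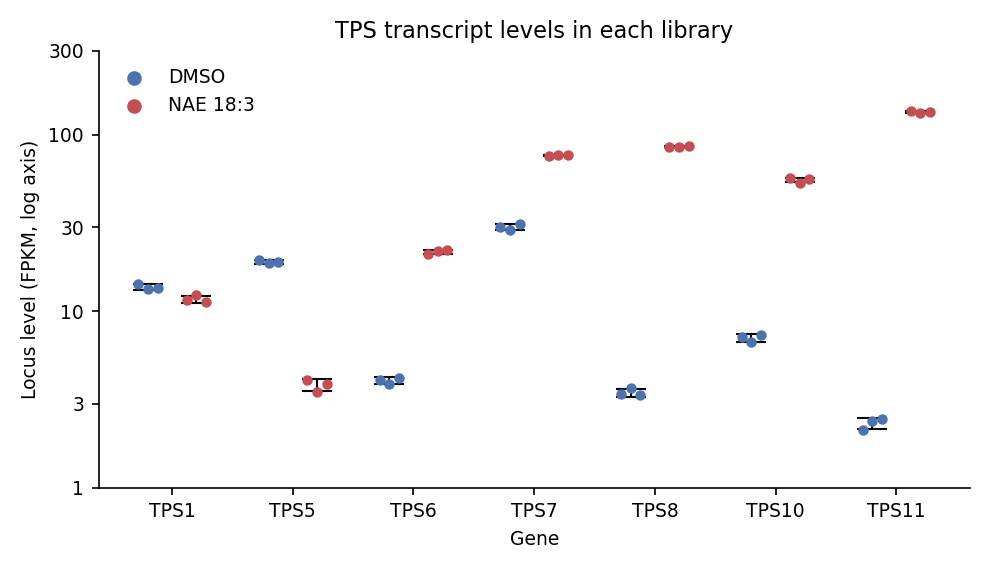
FPKM of each TPS locus in the 3 DMSO and 3 NAE 18:3 libraries on a log axis, with points for libraries and bars for mean ± SD. TPS11 went from 2.13 to 2.46 FPKM in DMSO to 133 to 136 FPKM, while TPS5 went from 18.7 to 19.7 FPKM down to 3.50 to 4.11 FPKM.

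TPS1 (AT1G78580), an active synthase, stood at 14.3, 13.3 and 13.6 FPKM in the DMSO libraries and at 11.5, 12.3 and 11.3 FPKM in the NAE 18:3 libraries. All DMSO values lay above all NAE 18:3 values, but the gap between the groups was about as wide as the spread within each. The log2 difference, -0.22 ± 0.06 (SE), was the smallest of the 7 genes and passed the limma test at an adjusted p of 0.0066. With upper-quartile scaling the log2 change was -0.54. In the annotation TPS1 shares 99 bases with AT1G78570 on the opposite strand, a gene at 113 to 120 FPKM in DMSO and 45.8 to 46.4 FPKM after NAE 18:3. It shares a further 429 bases with the long non-coding RNA gene AT1G09827, also on the opposite strand. The labels do not state whether counting used strand, so reads in those overlaps cannot be assigned. The other class I genes were at or near 0: TPS2 (AT1G16980) and TPS3 (AT1G17000) were listed at 0 in all 6 libraries, and TPS4 (AT4G27550) at 0 in 5, with 0.0221 FPKM in DMSO replicate 3.

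TPS5 (AT4G17770), a class II protein that binds 14-3-3 proteins when phosphorylated, stood at 19.7, 18.7 and 18.9 FPKM in DMSO and at 4.11, 3.50 and 3.85 FPKM after NAE 18:3. Every control library was above every treated library, and the ratio of the group means was 5.00-fold lower after NAE 18:3. On the log2 scale it fell by 2.06 ± 0.07 (SE), at an adjusted p of 7.8e-09 in limma. This change lay at the 3.65th percentile of the log2 changes of all loci tested. TPS5 shares 128 bases with AT4G17780 on the opposite strand, a gene at 0.0486 FPKM or less in every library. TPS5 was the only class II gene of the 6 analysed that fell, under each of the 14 alternative settings as well.

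TPS11 (AT2G18700), a class II gene linked to defence against aphids, had the largest rise of the 7. It stood at 2.13, 2.39 and 2.46 FPKM in DMSO and at 136, 133 and 135 FPKM after NAE 18:3, with a ratio of means of 57.7. The log2 rise of 5.35 ± 0.05 (SE) had an adjusted p of 2.1e-11 in limma and lay at the 99.7th percentile of all loci. TPS8 (AT1G70290) came next, at 3.38, 3.68 and 3.35 FPKM in DMSO and 85.5, 85.5 and 86.9 FPKM after NAE 18:3, a ratio of 24.8. The log2 rise was 4.28 ± 0.05 (SE), at the 99.3rd percentile. Both genes were among the least abundant members in DMSO and the most abundant after NAE 18:3.

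TPS10 (AT1G60140), the member nearest to TPS8 in coding sequence among those analysed, stood at 7.14, 6.69 and 7.39 FPKM in DMSO and at 56.7, 53.5 and 56.3 FPKM after NAE 18:3. Its ratio of means was 7.85 and its log2 rise 2.81 ± 0.05 (SE). TPS6 (AT1G68020), a class II gene that affects plant architecture and cell shape, stood at 4.09, 3.85 and 4.2 FPKM in DMSO and at 21.1, 22.1 and 22.2 FPKM after NAE 18:3. Its ratio was 5.38 and its log2 rise 2.17 ± 0.06 (SE). TPS6 overlaps AT1G68030 on the opposite strand by 207 bases in the annotation, a gene at 2.18 to 2.40 FPKM in DMSO and 0.979 to 1.22 FPKM after NAE 18:3. TPS7 (AT1G06410), the most abundant member in DMSO, had the smallest rise, from 30.1, 28.9 and 31.2 FPKM to 75.9, 77.2 and 77.1 FPKM. Its ratio was 2.55 and its log2 rise 1.32 ± 0.04 (SE). The adjusted p of TPS6 was 2.3e-09, that of TPS7 4.5e-09, that of TPS10 3.0e-10 and that of TPS8 3.5e-11 in the same limma fit. Replicates were close throughout, with coefficients of variation of 0.900% to 7.98% within a group.

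**Figure D2:**
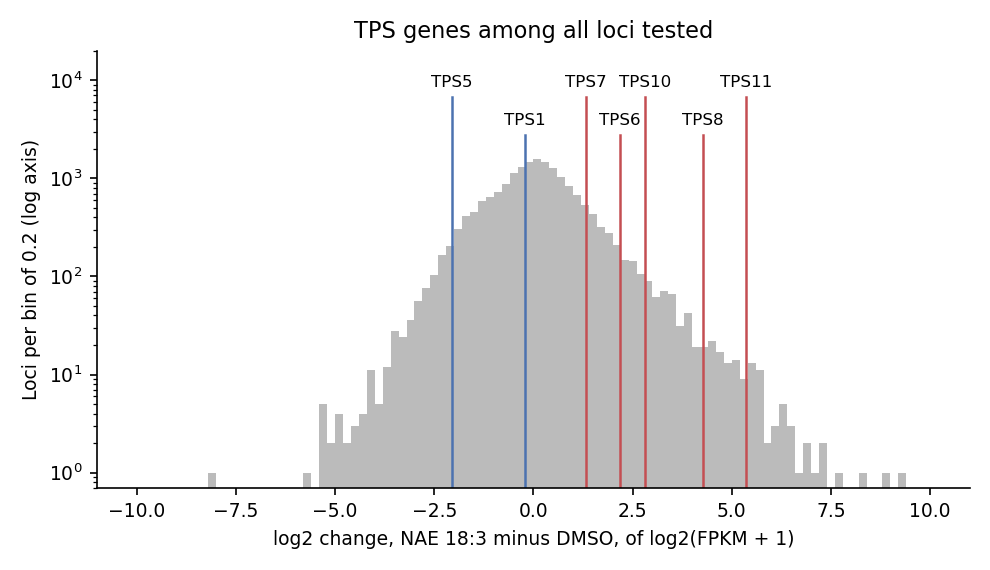
Histogram of the log2 change of all 18194 loci tested in bins of 0.2, with a log count axis, and lines at the 7 TPS genes. TPS11 at 5.35 and TPS8 at 4.28 lie in the upper tail, TPS5 at -2.06 in the lower tail, and TPS1 at -0.22 near the centre.

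The order of the family by level was rearranged. In DMSO the order from high to low was TPS7, TPS5, TPS1, TPS10, TPS6, TPS8 and TPS11, with means from 30.1 ± 1.14 FPKM (SD, n = 3) to 2.33 ± 0.173 FPKM. After NAE 18:3 it was TPS11, TPS8, TPS7, TPS10, TPS6, TPS1 and TPS5, with means from 134 ± 1.77 FPKM (SD, n = 3) to 3.82 ± 0.305 FPKM. No neighbours in either order overlapped in their 3 values, the closest pair being TPS6 at 3.85 to 4.2 FPKM and TPS8 at 3.35 to 3.68 FPKM in DMSO. Summed over the 7 genes, the level was 79.9 ± 1.96 FPKM in DMSO and 390 ± 2.78 FPKM after NAE 18:3, a ratio of 4.89. This ratio is on the deposited scale. There the summed FPKM of all loci was also higher after NAE 18:3 (991483 to 1140302 against 688025 to 866221).

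Within that sum the share of TPS11 went from 2.92% ± 0.243 (SD, n = 3) to 34.5% ± 0.299, and that of TPS8 from 4.35% ± 0.337 to 22.0% ± 0.157. TPS5 went from 23.9% ± 0.518 to 0.980% ± 0.0727, and TPS1, an active synthase, from 17.2% ± 0.490 to 3.00% ± 0.166. TPS7 rose in level but its share went from 37.7% ± 0.700 to 19.7% ± 0.274. TPS10 went from 8.85% ± 0.244 to 14.2% ± 0.353, and TPS6 kept nearly the same share, at 5.07% ± 0.105 and 5.59% ± 0.164. These shares are descriptive and carry no test, and they leave TPS9 out.

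**Figure D3:**
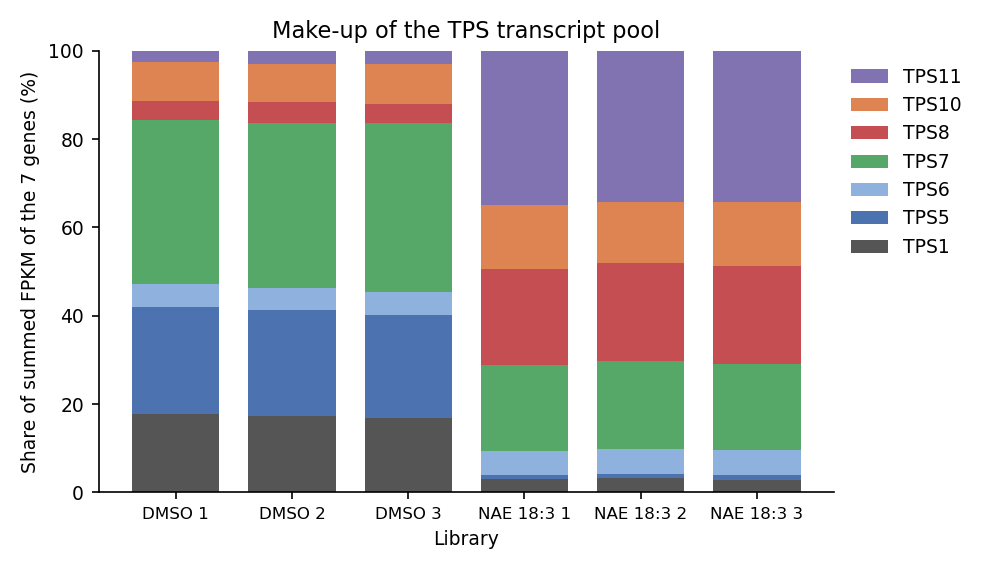
Stacked bars of each gene's share of the summed FPKM of the 7 TPS genes, in percent, for each of the 6 libraries. TPS7, TPS5 and TPS1 fill most of the DMSO bars, and TPS11, TPS8 and TPS7 most of the NAE 18:3 bars.

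The coding sequences did not follow the same division. In TAIR10.1 the 6 class II genes each had 3 coding exons and 2556 to 2589 coding bases, while TPS1 had 17 coding exons and 2829 coding bases. Coding identity was 55.9% to 59.3% between TPS1 and the class II genes and 64.3% to 72% among the 15 class II pairs. The closest pair analysed was TPS8 and TPS10 at 72%, which both rose. Next came TPS5 and TPS6 at 70.2%, of which TPS5 fell and TPS6 rose. TPS11 was 64.3% to 66% identical to the other class II genes.

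The table also divides loci into assembled transcripts, whose FPKM values are estimates that share reads. The 7 loci held 12 transcripts, of which 11 passed the filter of a mean of at least 1 FPKM, 7 of them higher, 3 lower and 1 not called. Of all 27052 transcripts tested, 64% were called, 36% higher and 28% lower. TPS1, TPS7 and TPS8 each had a single transcript, and the transcript call of TPS1 was a narrow one (limma, Benjamini-Hochberg adjusted p = 0.023). It was lost with the replicate block (0.065) and without DMSO replicate 1 (0.06), NAE 18:3 replicate 1 (0.066) or NAE 18:3 replicate 3 (0.078). At TPS6 the model AT1G68020.2 held at least 99.9% of the level in every library.

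At TPS5 both transcripts, assigned to the same annotated model, fell, by 2.13 and 1.63 on the log2 scale (limma, adjusted p of 5.3e-05 and 4.8e-05). Transcript A held 57.0%, 43.0% and 40.4% of the locus in DMSO and 36.8%, 32.9% and 28.3% after NAE 18:3, so its share was higher in every control library. At TPS11 both transcripts rose, by 5.26 and 4.15 on the log2 scale (limma, adjusted p of 3.4e-08 and 5.5e-07), and transcript A held 75.4% to 86.6% in DMSO and 79.4% to 84% after NAE 18:3, which overlap. At TPS10 the division between its 3 transcripts varied between DMSO libraries far more than the locus did. There transcript A held 97.0%, 12.9% and 60% while the locus stayed between 6.69 and 7.39 FPKM. After NAE 18:3, at a higher level, it held 89.8%, 82.7% and 90%. The single transcript not called was transcript B of TPS10 (-0.39 ± 0.79 on the log2 scale, SE).

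**Figure D4:**
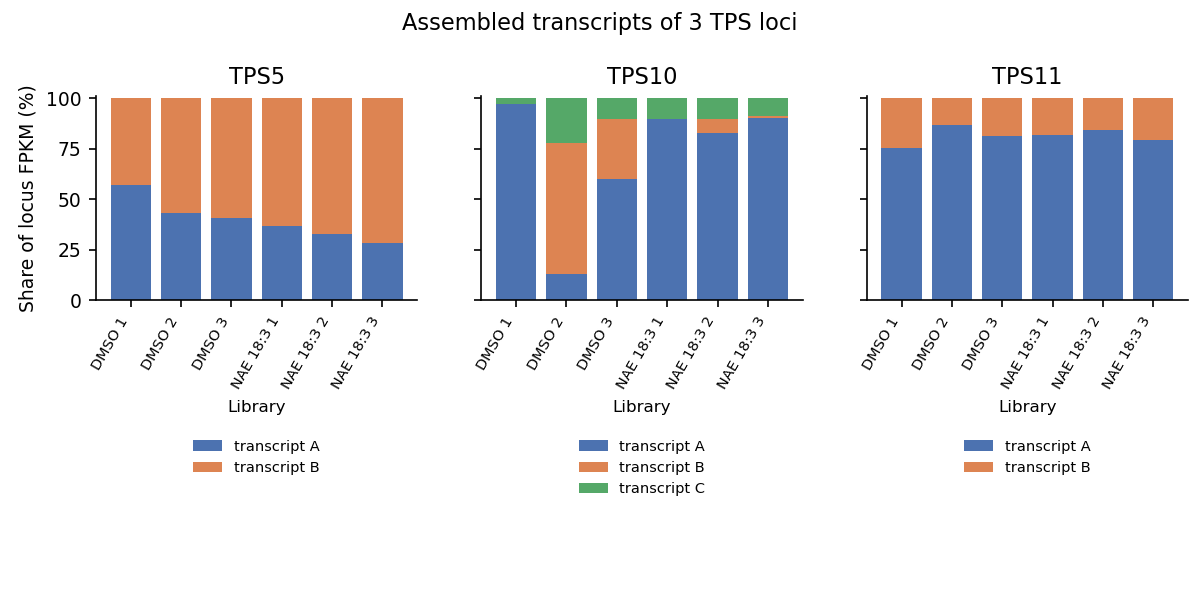
Share of the locus FPKM held by each assembled transcript of TPS5, TPS10 and TPS11, in percent, in each library. TPS10 transcript A ranges from 12.9% to 97.0% in DMSO, while TPS11 transcript A stays between 75.4% and 86.6% in all 6 libraries.

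Of the genes for the later steps of trehalose metabolism, most tested phosphatases fell and trehalase rose. Of the 10 phosphatase genes, 8 had a locus of their own, 6 were tested, 5 fell, 0 rose and 1 was not called, with a median log2 change of -0.46. After quantile normalization, and among those averaging 5 FPKM or more, 3 were lower. With no filter 4 were lower, and after upper-quartile scaling 6. The counts here and in the lists that follow have to be read against 83.2% of all loci called, 44.1% higher and 39.2% lower. The genes named as changed here and in the lists that follow had limma adjusted p-values of 0.014 or lower. TPPB (AT1G78090) fell from 8.05 ± 0.951 to 2.52 ± 0.129 FPKM (SD, n = 3), TPPJ (AT5G65140) from 2.05 ± 0.0474 to 0.625 ± 0.129 FPKM and TPPA (AT5G51460) from 11.2 ± 0.373 to 8.30 ± 0.751 FPKM. TRE1 (AT4G24040), trehalase, rose from 1.03 ± 0.202 to 8.27 ± 0.213 FPKM, a log2 change of 2.20. TPPF and TPPG were listed only under the identifiers of their upstream open reading frames and are not reported.

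Among enzymes of UDP-glucose and hexose phosphates, the median log2 change was -0.65: 3 of 9 genes rose and 6 fell, against 1 and 7 under either other scaling. UGP2 (AT5G17310), a UDP-glucose pyrophosphorylase, rose from 17.5 ± 1.58 to 82.5 ± 1.63 FPKM, while its homologue UGP1 (AT3G03250) fell from 82.6 ± 2.40 to 49.5 ± 0.556 FPKM. SUS4 (AT3G43190), a sucrose synthase, fell from 16.2 ± 1.03 to 0.849 ± 0.0970 FPKM and PGI1 (AT4G24620), plastid phosphoglucose isomerase, from 76.5 ± 2.46 to 48.3 ± 0.526 FPKM. PGM2 (AT1G70730), a cytosolic phosphoglucomutase, rose by 0.42 on the log2 scale, and its call was lost after upper-quartile scaling (0.08) and after quantile normalization (0.03). SPS1F (AT5G20280), a sucrose-phosphate synthase, rose by 0.14 and turned to -0.21 and -0.23 with those scalings.

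Of the 7 SnRK1 subunit genes, 4 rose, 1 fell and 2 were not called, with a median of 0.75. These counts are near the 44.1% of all loci called higher and below the 83.2% called at all. The median was 0.42 after upper-quartile scaling and 0.47 after quantile normalization, with 4 higher and 3 lower in each. KINB1 (AT5G21170), a beta subunit, rose from 9.37 ± 1.39 to 134 ± 4.07 FPKM, KING1 (AT3G48530), a gamma-type subunit, from 23.4 ± 0.993 to 94.2 ± 0.622 FPKM, and KIN11 (AT3G29160), a catalytic subunit, from 11 ± 0.605 to 29.3 ± 1.17 FPKM. KINB2 (AT4G16360) fell from 32.7 ± 0.524 to 22.7 ± 0.779 FPKM. Of the 9 C and S1 bZIP factor genes, which act with SnRK1 in starvation responses, 7 had a locus of their own, 5 rose and 2 fell, with a median of 1.19. Of the 5, bZIP10 (AT4G02640) rose by 0.24 and turned to -0.09 after upper-quartile scaling and to -0.02 after quantile normalization. bZIP63 (AT5G28770) rose from 2.04 ± 0.272 to 86.0 ± 1.32 FPKM, bZIP1 (AT5G49450) from 2.08 ± 0.696 to 75.6 ± 0.587 FPKM and bZIP25 (AT3G54620) from 23.2 ± 0.183 to 54.3 ± 0.766 FPKM. bZIP11 (AT4G34590), whose translation sucrose represses, fell from 33.8 ± 0.711 to 4.39 ± 0.322 FPKM and bZIP44 (AT1G75390) from 27.4 ± 0.654 to 5.70 ± 0.464 FPKM.

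Genes known to respond to sugar were set beside the family, in lists drawn up with results of these data already known. All 8 genes of the sugar-starvation list rose, with a median of 6.26, and all 6 of the sugar-induced list fell, with a median of -4.35. Of these 6, 5 were lower after quantile normalization, where BAM5 (AT4G15210), a beta-amylase, went from -0.50 to -0.14, and 5 were lower among genes averaging 5 FPKM or more. SEN1 (AT4G35770), a dark-induced gene, stood at 28.4 ± 1.04 and 1294 ± 18.9 FPKM, ASN1 (AT3G47340), asparagine synthetase, at 0.426 ± 0.149 and 869 ± 20.7 FPKM, and DIN10 (AT5G20250), a raffinose synthase-like gene, at 22.0 ± 1.46 and 1035 ± 18.3 FPKM at its more abundant locus. GPT2 (AT1G61800), a plastid glucose 6-phosphate transporter, stood at 171 ± 6.14 and 3.16 ± 0.457 FPKM, CHS (AT5G13930), chalcone synthase, at 491 ± 15.3 and 15.1 ± 1.17 FPKM, and APL3 (AT4G39210), a subunit of ADP-glucose pyrophosphorylase, at 26.2 ± 1.04 and 1.30 ± 0.0929 FPKM.

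**Figure D5:**
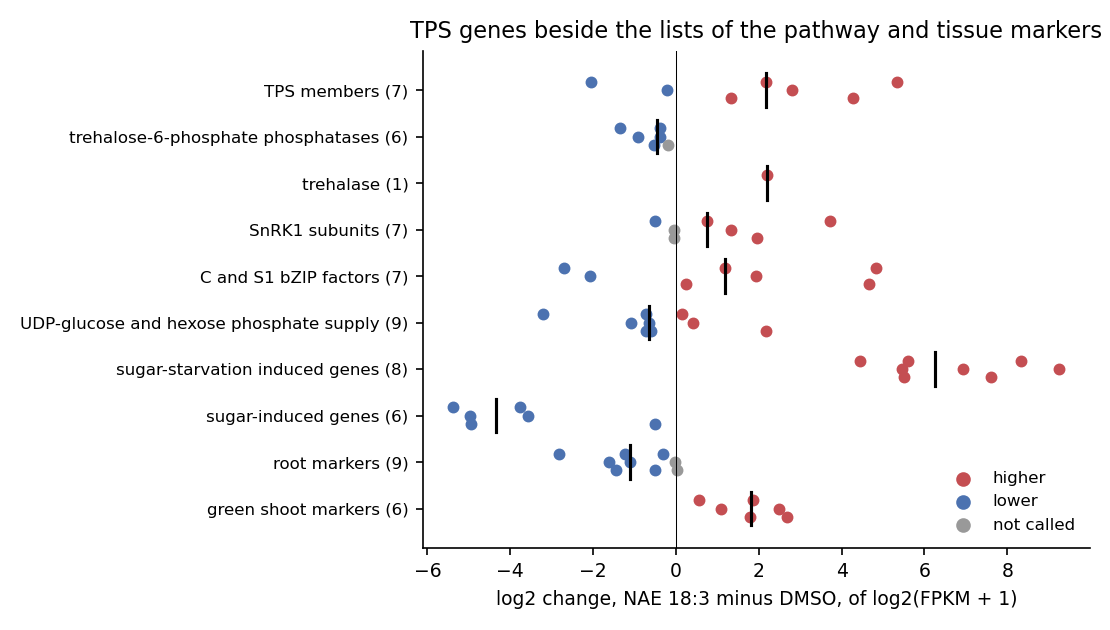
Log2 change of each tested gene of the TPS family, the pathway lists and the tissue markers, with the number of tested genes in brackets, colours for the call and a black bar at the median. TPS genes spread from -2.06 to 5.35, the phosphatases lie from -1.36 to -0.20, and the sugar lists lie on opposite sides of 0.

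The locus most like TPS11, by Euclidean distance over the 6 libraries between log2(FPKM + 1) values centred on each locus's mean, was BT5 (AT4G37610), a BTB and TAZ domain gene, at a distance of 0.103. ACBP3 (AT4G24230), an acyl-CoA-binding protein, followed at 0.111 and MYBL2 (AT1G71030), a MYB repressor of anthocyanin synthesis, at 0.171. BT5 stood at 2.03 ± 0.212 and 128 ± 1.98 FPKM and ACBP3 at 2.37 ± 0.102 and 144 ± 0.316 FPKM (SD, n = 3). For TPS5 the nearest loci were AT3G60245, a zinc-binding ribosomal protein, at 0.0808, MCM2 (AT1G44900), a DNA replication helicase subunit, at 0.0827 and the peroxidase AT2G38380 at 0.11. These distances describe 2 groups of 3 libraries and mainly reflect a similar size of change.

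Tissue markers moved with the treatment as well. Of 12 root markers, 10 had a locus of their own, 9 were tested, 7 fell and 2 were not called (9 lower after upper-quartile scaling, and 3 lower among those averaging 5 FPKM or more), and their summed level was 102 to 107 FPKM in DMSO and 57.8 to 62.8 FPKM after NAE 18:3. CASP1 (AT2G36100), of the Casparian strip, fell from 34.4 ± 0.252 to 12.0 ± 1.11 FPKM and PRP1 (AT1G54970), a proline-rich cell wall protein, from 7.08 ± 1.15 to 0.133 ± 0.0434 FPKM. All 6 green shoot markers rose on the deposited scale, among them RCA (AT2G39730), Rubisco activase, LHCB2.1 (AT2G05100) and LHCA3 (AT1G61520), with log2 changes of 2.69, 2.49 and 1.86. After quantile normalization those changes were 1.2, 1.62 and 0.57, 4 of the 6 were higher and 1 lower, and the median of the list went from 1.82 to 0.44. No marker of either list was at 0 in every library of a group, and the part of tissue make-up in the TPS changes was not tested. Summed FPKM over all loci was 688025 to 866221 in DMSO and 991483 to 1140302 after NAE 18:3. A relative depth was estimated from the smallest FPKM steps, with NAE 18:3 replicate 1 set to 1. It was 0.482 to 0.968 in DMSO and 0.987 to 1.27 after NAE 18:3. The estimate is rough, since only 23.7% to 29.6% of the loci compared lay at the common step. The part of depth was not tested either. The 7 TPS calls were made without any 1 of the 6 libraries, which cannot separate depth from group. Every DMSO library had a lower estimated depth than every NAE 18:3 library.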

How the data were processed

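The authors deposited FPKM values per locus and per transcript. The submitters' processing notes name TopHat, Cufflinks, Cuffdiff and the TAIR9 build, without versions or settings. The unit is taken from those tools and from the values. Column headers recur in the sample descriptions, which gave each column its library, and 4 columns of merged values were left out. Whole fragments could not be recovered from the FPKM steps (23.7% to 29.6% of the loci compared lay at the common step, within 0.02 on the log2 scale), so no count model was applied and absolute depth is unknown.

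Log2(FPKM + 1) was modelled by group alone in limma 3.58.1 (R 4.3.3, mean-variance trend) for loci averaging 1 FPKM or more, and p-values were adjusted over all 18194 loci. Log2 changes are NAE 18:3 minus DMSO and understate those of low genes. Transcripts were fitted alike. The fit was tested on simulated data with independent noise and few changed loci. In the seedlings most loci were called, so that test does not bear on how the scaling affects the calls. Loci that join several genes were left out of the lists, and for a gene on 2 loci the more abundant was used. Up to 3 called members per list and direction, by adjusted p, are named. Members, lists and motifs were chosen with earlier results of these data known.

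The deposited table holds no coordinates. Upstream windows and coding sequences came from RefSeq's TAIR10.1 genome with that build's own annotation, for the transcript model that holds the locus level. Coding identity is the share of matching bases among aligned bases in global alignments (Biopython 1.88). Upstream windows are described for 3 members, and one root marker is not reported here.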

Additional observations from a re-analysis of the deposited data

How the results depend on the processing

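The 7 TPS calls, 5 higher and 2 lower, were the same in number under each of the 14 alternatives, which were another pseudocount (0.1), a filter at 5 FPKM, no filter, 2 other scalings, no mean-variance trend, the replicate block, summed transcripts and each library left out in turn. The log2 change ranged from 5.05 to 5.79 for TPS11, 3.97 to 4.59 for TPS8, 2.48 to 2.96 for TPS10, 1.86 to 2.40 for TPS6, 0.95 to 1.35 for TPS7, -0.54 to -0.19 for TPS1 and -2.37 to -2.01 for TPS5. Called loci numbered 11702 (filter at 5 FPKM) to 16043 (no filter) against 15143. Those filters also change how many loci were tested. Of the other genes named, SPS1F turned from 0.14 to -0.21 with upper-quartile scaling and to -0.23 with quantile normalization, while PGM2 lost its call with both. bZIP10 turned from 0.24 to -0.09 and -0.02 under the same scalings. BAM5 went from -0.50 to -0.14 with quantile normalization, where 5 of the 6 sugar-induced genes were called lower. The cause was not tested.

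The replicate numbers are shared between the groups, but nothing in the labels pairs the libraries, and the deviations of same-numbered libraries correlated at -0.0133, -0.00872 and 0.0182. Not every library correlated best with its own number (DMSO replicate 1 with NAE 18:3 replicate 2, 0.0238). With the replicate block 15012 loci were called, all 7 TPS loci among them, and 2 in place of 3 TPS transcripts were lower, TPS1 being lost.
The growth and treatment records name no batch, so a batch that followed the groups cannot be told apart from them. Absolute depth is unknown, so no counting error can be given for the low levels of TPS11, TPS8 and TPS6 in DMSO beyond the spread of 3 libraries.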
